A study of Danio rerio with 32 samples.

Results

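The genes described here encode the machinery that copies DNA and the machinery that divides the cell, followed in whole zebrafish larvae of different pllp genotypes on 2 diets. They were taken from a list of 60 gene symbols, 27 for DNA replication and 33 for mitosis, matched to the symbols of the measured genes without regard to case. Of these symbols 58 were found, in 60 of 32520 genes: 29 genes for replication, where MCM6 and RRM2 each name a pair of genes, and 31 for mitosis. The mitotic symbols birc5a and prc1b matched no gene and were skipped. After a filter on low counts 58 of the 60 genes could be tested in each experiment, 27 for replication and 31 for mitosis in experiment 1, and 28 for replication and 30 for mitosis in experiment 2.

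RNA was extracted from whole larvae at 20 days after fertilization (dpf). Experiment 1 held larvae with the pllp mutation pd1245, larvae with the pllp mutation pd1116 and larvae of the wild-type strain EK, each on a low protein (LP) and a high protein (HP) diet, with 3 libraries in each of 6 groups. In the labels of experiment 1 pd1245 is the newer allele, whose larvae survive poorly when nutrition is restricted, and pd1116 the older one, in which that defect has been lost by adaptation. Experiment 2 held a pd1245 line that they call adapted and EK, again on both diets, with 4 libraries in each LP group and 3 in each HP group. pllp encodes plasmolipin, a membrane protein of vesicle traffic in epithelia. The number of larvae in a library, and whether libraries came from separate tanks or clutches, is not given in the sources used here, so every p measures the spread between these libraries, which may be technical. The 2 experiments used different library kits and were normalised and tested apart.

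Before a cell copies its genome, origins are marked by the origin recognition complex, on which CDC6 and CDT1 load the ring-shaped MCM helicase. In S phase CDK2 with cyclin E, and the helicase partners CDC45 and GINS, switch that helicase on, polymerases held by the PCNA clamp copy both strands, and ribonucleotide reductase and thymidylate synthase supply the nucleotides. In mitosis CDK1 with cyclins A and B drives entry, the spindle and kinetochores align the chromosomes under the watch of checkpoint kinases, and the anaphase-promoting complex with separase lets the sister chromatids part. Transcripts of both sets are abundant where cells proliferate, which in a larva of this age includes gut, skin, blood-forming tissue, brain, cartilage and bone.

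Libraries of experiment 1 held 19838912 to 29147958 counts assigned to genes, of which 5728 to 18969 fell on the replication genes and 2104 to 12521 on the mitosis genes. Libraries of experiment 2 held 3713048 to 12929536 counts, the lowest in replicate 2 of EK on HP, with 3440 to 15075 on the replication genes and 1036 to 3676 on the mitosis genes. Replicate 3 of pd1245 on LP stood apart from the other libraries of experiment 1. Ribosomal protein genes took 13.9% of its counts, against 6.56 to 8.70% elsewhere, malat1 took 1.17% against 0.433 to 0.583%, and its TMM scaling factor was 0.832 against 0.971 to 1.06. It is given apart from replicates 1 and 2 below. The mutated gene itself, pllp, lay at 3.39 to 7.02 CPM in pd1245 on LP and at 9.22 to 10.2 CPM on HP in experiment 1. It lay at 6.46 to 8.03 CPM in pd1116 over both diets. In EK it lay at 12.8 to 17.1 CPM on LP and at 11.3 to 12.5 CPM on HP. In experiment 2 it lay at 5.41 to 7.72 CPM in the adapted line, against 24.6 to 38.3 CPM in EK. Markers of muscle, liver, enterocytes, neurons, epidermis and lens were detected in every library, as whole larvae would give, while the haemoglobin gene hbaa1 of red cells was at 0.191 CPM or less throughout.

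Expression is given in CPM, the usual unit of counts scaled to library size. To place each library on 1 scale, each gene's log2(CPM + 0.5) was set against its mean over the experiment, and the median of these deviations was taken over the replication genes and over the mitosis genes. On that scale the mitosis genes stood at −0.27 and −0.57 in replicates 1 and 2 of pd1245 on LP and at −1.33 in replicate 3. They stood at −0.02, −0.51 and −0.05 in the pd1245 libraries on HP. The range was 0.23 to 0.35 for pd1116 on LP, 0.18 to 0.32 for pd1116 on HP, 0.26 to 0.29 for EK on LP and −0.05 to 0.21 for EK on HP. For mitosis genes, therefore, every pd1245 library on LP lay below all libraries of the other genotypes, and the pd1245 libraries on HP lay below all of these, except that replicate 1 stood above replicate 1 of EK on HP. The replication genes stood at −0.01, −0.41 and −0.86 in replicates 1, 2 and 3 of pd1245 on LP and between −0.11 and 0.29 in pd1245 on HP, against −0.17 to 0.33 in pd1116 and −0.08 to 0.30 in EK. For replication genes the HP libraries of all genotypes overlapped, and on LP replicate 1 of pd1245 lay within the range of pd1116.

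**Figure D1:**
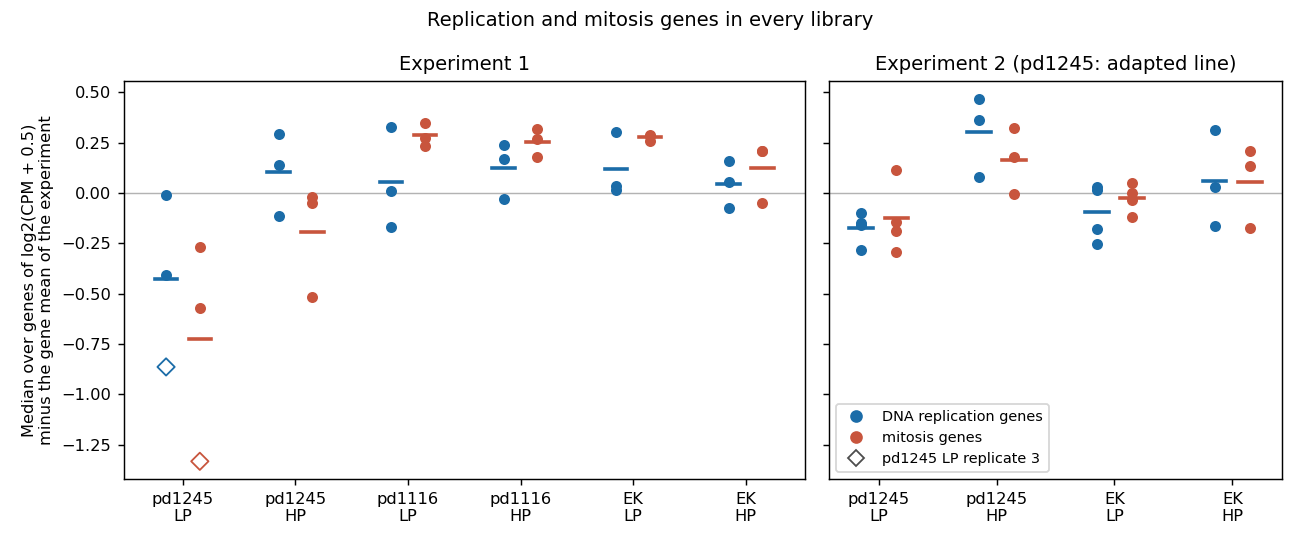
Median over the replication genes (blue) and over the mitosis genes (red) of log2(CPM + 0.5) minus each gene's mean over the experiment, 1 point per library, by genotype and diet, with group means as bars. Open diamonds mark replicate 3 of pd1245 on LP, at −0.86 and −1.33; in experiment 2 the groups lie closer together.

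What the new mutation changes under restriction was asked by setting pd1245 against EK, both on LP. Genes of both sets were lower in pd1245, and more of the mitotic set passed the test. Of the 58 genes tested, 38 fell and 0 rose (edgeR quasi-likelihood test, Benjamini-Hochberg adjusted p under 0.05 over all genes tested), where 15.8% of all genes tested fell, 16% rose and 31.8% changed in either direction. The calls comprised 9 of 27 replication genes and 29 of 31 mitosis genes. The replication share, 33.3%, is near the 31.8% of all genes that changed in either direction. That set is therefore not set apart by its number of calls, although all of its calls were lower. All 58 log2 fold changes were negative, from −1.57 to −0.04, with a median of −0.52 for the replication genes and −0.96 for the mitosis genes, where the median of all genes was 0.01. In 39 of the 58 genes every pd1245 library lay below every EK library, 10 for replication and 29 for mitosis, as it did in 22% of all genes. In whole larvae, fewer dividing cells and less of these RNAs per dividing cell cannot be told apart.

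**Figure D2:**
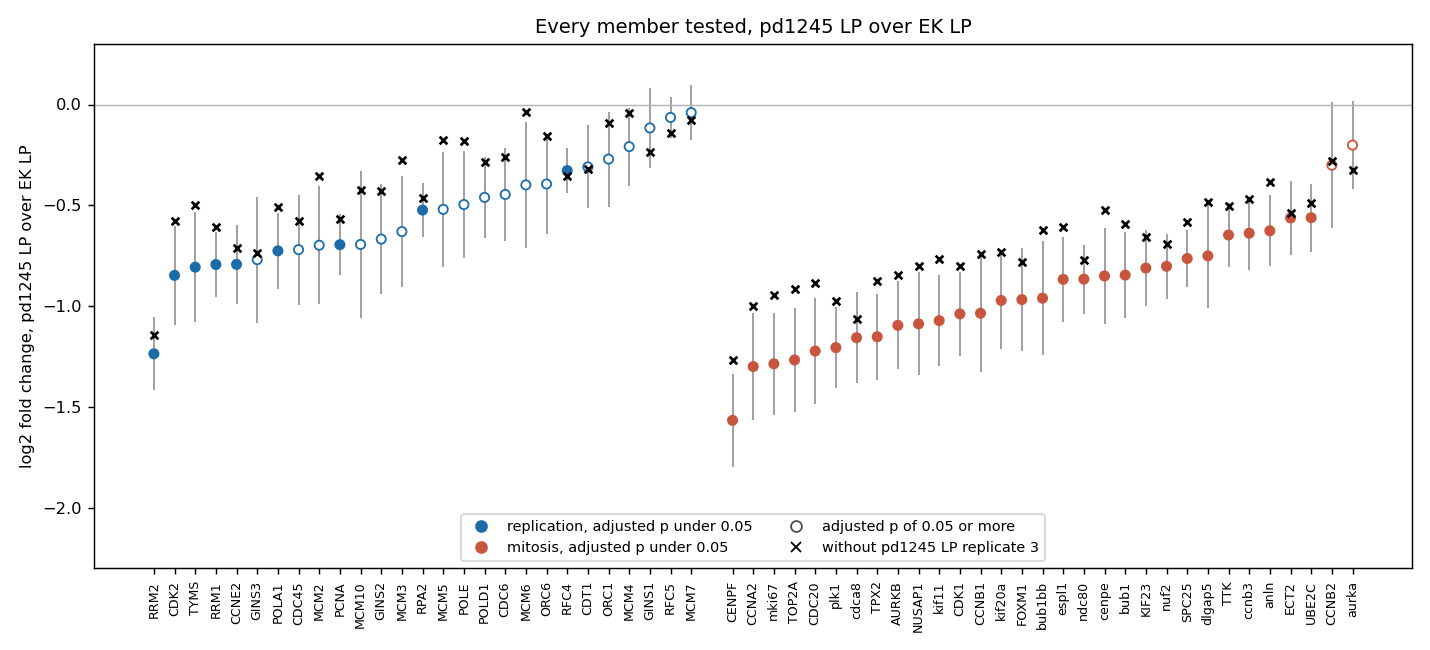
Log2 fold change of pd1245 over EK on LP (y axis) for each of the 58 genes tested, replication genes (blue) left of mitosis genes (red), with lines of 1 SE; filled points passed an adjusted p of 0.05. Crosses give the value without replicate 3 of pd1245, and most of them lie nearer 0. MCM6 and RRM2 stand for the 1 gene of each pair that was tested.

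Replicate 3 of pd1245 on LP was the lowest of the 3 libraries in most of these genes, so the comparison was also made without it. Then 35 genes fell, 8 for replication and 27 for mitosis, all of them among the 38. ECT2, TYMS and dlgap5 no longer passed, with adjusted p of 0.0531, 0.0908 and 0.114. The median moved to −0.35 for the replication genes and −0.73 for the mitosis genes. When only the libraries of the 2 groups were fitted, 18 genes passed with replicate 3 and 36 without it. The share of all genes passing in each of these fits is not set beside the counts. The shifts are therefore not read as particular to these genes. Replicates 1 and 2 of pd1245 also held more ribosomal protein counts than EK on LP, at 8.70 and 8.47% against 7.44 to 7.82%. Their malat1 shares were 0.580 and 0.583%, against 0.470 to 0.551% in EK on LP. The part of the ribosomal protein and malat1 counts of replicate 3, or of replicates 1 and 2, in the fold changes was not tested.

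Among the licensing factors, which load the helicase, 0 of 10 genes passed the test, with a median log2 fold change of −0.40; 3 of them are named here with values in every library. MCM2, a helicase subunit, had 41.3 and 26.8 CPM in replicates 1 and 2 of pd1245 and 11.4 CPM in replicate 3, against 38.9, 49.7 and 41.4 CPM in EK (log2 fold change −0.70, SE 0.29, adjusted p = 0.0764). MCM3 had 27.8 and 21.3 CPM in replicates 1 and 2 of pd1245 and 7.74 CPM in replicate 3, against 25.0, 33.9 and 29.9 CPM in EK (−0.63, SE 0.28, adjusted p = 0.0875). In both genes replicate 1 of pd1245 lay within the EK range and replicate 3 far below it, and without replicate 1 both passed, with adjusted p of 0.00398 and 0.00908. MCM7, a subunit of the same ring, had 52.2 and 40.3 CPM in replicates 1 and 2 of pd1245 and 49.5 CPM in replicate 3, against 47.2, 52.6 and 46.1 CPM in EK (−0.04, SE 0.14, adjusted p = 0.846). Its groups overlapped, and replicate 3 was not low, so the subunits of 1 helicase did not move alike in that library. Of the remaining licensing genes, CDC6 stood at −0.45, MCM5 at −0.52, MCM6 (ENSDARG00000057683) at −0.40, ORC6 at −0.39, CDT1 at −0.31, ORC1 at −0.27 and MCM4 at −0.21. The second MCM6 gene (ENSDARG00000033231) was at most 0.395 CPM in every library of experiment 1 and was not tested.

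Of the genes that switch the helicase on, 0 of 5 passed, at a median of −0.69. CDC45, the helicase cofactor, had 2.87 and 1.85 CPM in replicates 1 and 2 of pd1245 and 1.58 CPM in replicate 3, against 2.40, 4.15 and 3.98 CPM in EK (−0.72, SE 0.27, adjusted p = 0.0514). GINS3, a subunit of the GINS complex, had 1.68 and 0.811 CPM in replicates 1 and 2 of pd1245 and 1.13 CPM in replicate 3, against 1.89, 2.69 and 1.60 CPM in EK (−0.77, SE 0.31, adjusted p = 0.0676). Replicate 1 of pd1245 exceeded 1 EK library in each of them. CDC45 passed without a filter on low counts, in DESeq2, and without replicate 1 of EK or of pd1245 (adjusted p of 0.0483, 0.0398, 0.0195 and 0.0134), so it lay at the threshold, and GINS3 passed without replicate 1 of pd1245 (adjusted p = 0.0191). GINS2 stood at −0.67, MCM10, which helps the helicase start, at −0.69, and GINS1 at −0.12.

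Of the 7 genes of DNA synthesis 4 fell: POLA1, PCNA, RPA2 and RFC4. PCNA, the clamp that holds the polymerases on DNA, had 106 and 81.7 CPM in replicates 1 and 2 of pd1245 and 69.2 CPM in replicate 3, against 125, 156 and 136 CPM in EK (−0.69, SE 0.15, adjusted p = 0.00235). RPA2, a subunit of the protein that coats single-stranded DNA, had 14.4 and 12.4 CPM in replicates 1 and 2 of pd1245 and 11.6 CPM in replicate 3, against 18.4, 20.2 and 16.6 CPM in EK (−0.52, SE 0.13, adjusted p = 0.00655). POLA1, the catalytic subunit of the polymerase that makes the primers, had 27.3 and 20.3 CPM in replicates 1 and 2 of pd1245 and 13.2 CPM in replicate 3, against 32.2, 36.2 and 32.7 CPM in EK (−0.73, SE 0.19, adjusted p = 0.00733). In these 3 genes the groups did not overlap, with all pd1245 libraries below all EK libraries. RFC4, of the clamp loader, fell by 0.33 on the log2 scale (adjusted p = 0.0346), while its partner RFC5 stood at −0.06 (adjusted p = 0.667). The polymerases POLE and POLD1 stood at −0.50 and −0.46 and did not pass.

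All 3 tested genes of nucleotide supply fell. RRM2 (ENSDARG00000078069), the small subunit of ribonucleotide reductase, had 8.70 and 6.14 CPM in replicates 1 and 2 of pd1245 and 5.82 CPM in replicate 3, against 14.9, 19.1 and 14.9 CPM in EK (−1.24, SE 0.18, adjusted p = 0.000119). RRM1, the large subunit, had 34.5 and 30.1 CPM in replicates 1 and 2 of pd1245 and 20.1 CPM in replicate 3, against 43.7, 55.2 and 48.5 CPM in EK (−0.79, SE 0.16, adjusted p = 0.00135). The groups were apart in both, and in RRM2 replicate 3 was close to replicate 2. TYMS, thymidylate synthase, had 7.39 and 4.55 CPM in replicates 1 and 2 of pd1245 and 2.15 CPM in replicate 3, against 7.62, 10.1 and 7.48 CPM in EK (−0.81, SE 0.27, adjusted p = 0.0303). The second RRM2 gene (ENSDARG00000020711) was at or below 0.172 CPM in every library of experiment 1 and was not tested there. It lay at 17.1 to 54.3 CPM in experiment 2, a level normalised apart. How reads of the copies of RRM2 and of MCM6 were divided in counting is not given in the sources used here, so the level of each copy is uncertain.

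Both S-phase kinase genes fell. CCNE2, a cyclin E, had 3.98 and 3.55 CPM in replicates 1 and 2 of pd1245 and 3.05 CPM in replicate 3, against 5.46, 6.80 and 6.19 CPM in EK (−0.79, SE 0.20, adjusted p = 0.00525). CDK2, its kinase, had 4.92 and 3.98 CPM in replicates 1 and 2 of pd1245 and 1.92 CPM in replicate 3, against 6.09, 7.09 and 6.71 CPM in EK (−0.85, SE 0.25, adjusted p = 0.0139). All pd1245 libraries lay below all EK libraries in both genes. The CDK2 call was lost when only these 2 groups were fitted (adjusted p = 0.0829).

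Of the cyclins, kinase and regulator of mitotic entry 5 of 6 fell: CCNA2, CDK1, CCNB1, FOXM1 and ccnb3. CDK1, the kinase that starts mitosis, had 7.39 and 4.63 CPM in replicates 1 and 2 of pd1245 and 2.94 CPM in replicate 3, against 10.4, 11.0 and 9.86 CPM in EK (−1.04, SE 0.21, adjusted p = 0.00132). CCNA2, cyclin A, had 8.54 and 5.44 CPM in replicates 1 and 2 of pd1245 and 2.60 CPM in replicate 3, against 13.9, 15.0 and 12.7 CPM in EK (−1.30, SE 0.26, adjusted p = 0.00138). The groups were apart in both genes, with replicate 3 the lowest. CCNB1, a cyclin B, fell by 1.03 (adjusted p = 0.0121), FOXM1, a transcription factor of mitotic genes, by 0.97 (adjusted p = 0.00784) and ccnb3 by 0.64 (adjusted p = 0.012) on the log2 scale. CCNB2 was the exception, at 1.27 and 1.85 CPM in replicates 1 and 2 of pd1245 and 1.47 CPM in replicate 3, against 2.08, 2.12 and 1.47 CPM in EK, where the groups overlapped (−0.30, SE 0.31, adjusted p = 0.489).

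Of the checkpoint genes and mitotic kinases 6 of 7 fell. plk1, a polo kinase of spindle and cytokinesis, had 9.23 and 6.79 CPM in replicates 1 and 2 of pd1245 and 4.12 CPM in replicate 3, against 15.9, 14.8 and 16.4 CPM in EK (−1.21, SE 0.20, adjusted p = 0.00033). cdca8, a subunit of the chromosomal passenger complex, had 2.46 and 1.89 CPM in replicates 1 and 2 of pd1245 and 1.69 CPM in replicate 3, against 4.24, 4.60 and 4.76 CPM in EK (−1.16, SE 0.22, adjusted p = 0.00103). In both the highest pd1245 library stood well below the lowest EK library, and in cdca8 replicate 3 lay close to replicate 2. AURKB, the kinase of that complex, fell by 1.10, and the spindle checkpoint genes bub1bb, bub1 and TTK fell by 0.96, 0.85 and 0.65 on the log2 scale (adjusted p of 0.00121, 0.0153, 0.00628 and 0.00545 in this order). aurka, the kinase of the spindle poles, had 3.00 and 2.39 CPM in replicates 1 and 2 of pd1245 and 3.44 CPM in replicate 3, against 4.13, 2.73 and 3.20 CPM in EK (−0.20, SE 0.22, adjusted p = 0.508). Its groups overlapped, and here replicate 3 was the highest pd1245 library.

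The 3 genes of anaphase all fell. CDC20, an activator of the anaphase-promoting complex, had 4.23 and 3.40 CPM in replicates 1 and 2 of pd1245 and 1.13 CPM in replicate 3, against 7.47, 7.01 and 6.58 CPM in EK (−1.22, SE 0.26, adjusted p = 0.00198). espl1, which encodes separase, had 5.13 and 4.21 CPM in replicates 1 and 2 of pd1245 and 2.09 CPM in replicate 3, against 7.78, 6.68 and 6.79 CPM in EK (−0.87, SE 0.21, adjusted p = 0.00493). Neither pair of groups overlapped. UBE2C, the ubiquitin-conjugating enzyme of the same complex, fell by 0.56 (adjusted p = 0.0166). With only these 2 groups in the fit, CDC20 and espl1 lost their calls (adjusted p of 0.0573 and 0.0728).

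All 5 kinetochore genes fell, among them the gene with the largest fold change of the 58. CENPF, a large kinetochore protein, had 15.5 and 12.2 CPM in replicates 1 and 2 of pd1245 and 5.42 CPM in replicate 3, against 33.7, 34.7 and 31.0 CPM in EK (−1.57, SE 0.23, adjusted p = 0.000119). Even its highest pd1245 library was below its lowest EK library by a wide gap, and without replicate 3 it stood at −1.26. SPC25, a subunit of the NDC80 complex that holds microtubules, had 10.1 and 9.50 CPM in replicates 1 and 2 of pd1245 and 5.99 CPM in replicate 3, against 14.5, 14.8 and 14.5 CPM in EK (−0.76, SE 0.14, adjusted p = 0.000742). Its groups did not overlap. Its partners ndc80 and nuf2 fell by 0.87 and 0.80, and cenpe, a kinetochore motor, by 0.85 on the log2 scale (adjusted p of 0.00119, 0.00126 and 0.0116 in this order).

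All 6 spindle genes fell. TPX2, which nucleates spindle microtubules, had 12.4 and 9.42 CPM in replicates 1 and 2 of pd1245 and 4.69 CPM in replicate 3, against 19.3, 19.0 and 21.4 CPM in EK (−1.15, SE 0.21, adjusted p = 0.000694). kif11, the motor that pushes the poles apart, had 12.8 and 10.7 CPM in replicates 1 and 2 of pd1245 and 4.52 CPM in replicate 3, against 21.1, 19.4 and 19.3 CPM in EK (−1.07, SE 0.23, adjusted p = 0.00187). Both groups were apart in each, with replicate 3 the lowest. NUSAP1, kif20a, KIF23 and dlgap5 fell by 1.09, 0.97, 0.81 and 0.75 (adjusted p of 0.00378, 0.00526, 0.00337 and 0.0343 in this order). The kif11 call was lost with only the 2 groups in the fit (adjusted p = 0.0535).

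Of the genes of cytokinesis, anln, which encodes the scaffold anillin, had 12.6 and 11.0 CPM in replicates 1 and 2 of pd1245 and 5.93 CPM in replicate 3, against 15.6, 14.9 and 15.6 CPM in EK (−0.63, SE 0.18, adjusted p = 0.0117). ECT2, an activator of RHOA at the division plane, had 4.80 and 3.32 CPM in replicates 1 and 2 of pd1245 and 3.78 CPM in replicate 3, against 6.33, 5.25 and 6.01 CPM in EK (−0.56, SE 0.18, adjusted p = 0.0268). Both fell, with the groups apart, but the ECT2 call was lost without any 1 of replicates 1 and 3 of EK and replicates 2 and 3 of pd1245 (adjusted p of 0.0815, 0.065, 0.103 and 0.0531). With only these 2 groups in the fit, both calls were lost (adjusted p of 0.11 for anln and 0.0736 for ECT2).

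The chromosomal proteins gave some of the widest gaps. mki67, the proliferation antigen that coats mitotic chromosomes, had 51.2 and 36.6 CPM in replicates 1 and 2 of pd1245 and 15.4 CPM in replicate 3, against 86.0, 84.8 and 81.9 CPM in EK (−1.29, SE 0.25, adjusted p = 0.00116). TOP2A, the topoisomerase that untangles sister chromatids, had 26.8 and 21.7 CPM in replicates 1 and 2 of pd1245 and 7.74 CPM in replicate 3, against 46.6, 44.8 and 45.3 CPM in EK (−1.27, SE 0.26, adjusted p = 0.00136). The EK libraries lay close together and the pd1245 libraries were spread widely below them. Without replicate 3 the fold changes were −0.95 for mki67 and −0.92 for TOP2A, and both still passed. With only these 2 groups in the fit, TOP2A did not pass (adjusted p = 0.0522).

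**Figure D3:**
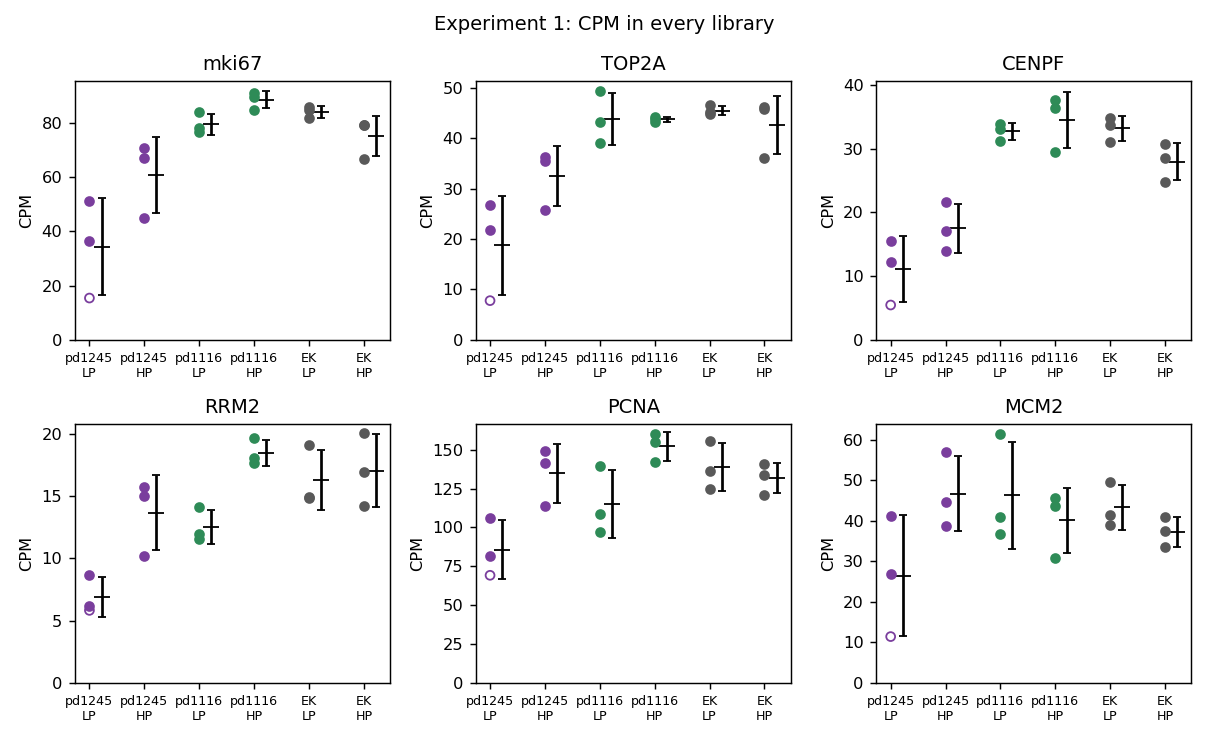
CPM in every library of experiment 1 for 3 mitosis genes (top) and 3 replication genes (bottom), by genotype and diet, with the group mean and SD beside the points; RRM2 is ENSDARG00000078069. The open point is replicate 3 of pd1245 on LP, the lowest of its group in all 6 panels; mki67, TOP2A, CENPF, RRM2 and PCNA show pd1245 on LP below EK on LP without overlap, and MCM2 does not.

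Marker lists of other tissues are set beside these genes for the same comparison, where 31.8% of all genes changed, so a list with a call share near that is not set apart by it. Of 5 blood progenitor markers 2 fell, MYB and klf1, and the 5 summed to 40.4 to 43.1 CPM in pd1245 and 63.0 to 66.8 CPM in EK. Of 3 markers of cartilage and bone progenitors 2 fell, SP7 and twist1b, and the 3 summed to 8.92 to 13.4 CPM in pd1245 and 17.9 to 21.8 CPM in EK. The red cell marker alas2 fell, and its list summed to 18.7 to 27.7 CPM in pd1245 and 52.5 to 63.8 CPM in EK. The other gene of that list, hbaa1, was nearly absent, so this sum is nearly that of alas2 alone. Both enterocyte markers fell, with sums of 986 to 1171 CPM in pd1245 and 1604 to 1845 CPM in EK. Of 7 tested germ cell markers PIWIL1 and DDX4 fell and ca15b rose, with a sum over 9 markers of 9.96 to 14.9 CPM in pd1245 and 15.7 to 18.2 CPM in EK; NANOS3 and SYCP3 were at 0 in some libraries. Of 8 neural progenitor markers ascl1a fell and SOX2 rose, with sums of 372 to 396 CPM in pd1245 and 367 to 406 CPM in EK, and 0 of 3 muscle progenitor markers passed. Of 2 epidermis markers krt5 fell, with sums of 9072 to 9739 CPM in pd1245 and 11132 to 12117 CPM in EK. The muscle marker ckma, the neuronal marker ELAVL3 and the lens marker crygm2d1 rose, with the muscle sum at 4806 to 8904 CPM in pd1245 and 2698 to 3750 CPM in EK. The part of tissue composition in the fall of the replication and mitosis genes was not tested.

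On HP, pd1245 against EK left nearly all of these genes short of the threshold. 1 of 58 genes fell, where 2.54% of all genes tested fell and 4.16% changed in either direction. The medians parted by set: 0.08 for the replication genes, of which 7 of 27 were negative, and −0.33 for the mitosis genes, of which 30 of 31 were negative. The gene that fell was ccnb3, a B-type cyclin, at 4.70, 3.37 and 4.96 CPM in pd1245 against 6.40, 8.08 and 6.67 CPM in EK (log2 fold change −0.69, SE 0.18, edgeR adjusted p = 0.03), with all pd1245 libraries below all EK libraries. Its call was lost without replicate 2 or 3 of EK or replicate 1 or 2 of pd1245 (adjusted p of 0.165, 0.0543, 0.0653 and 0.154), and 5 mitosis genes passed when replicate 3 of pd1245 on LP was left out of the fit. aurka had 2.33, 1.55 and 2.65 CPM in pd1245 and 2.67, 3.74 and 4.09 CPM in EK (−0.67, SE 0.22, adjusted p = 0.0955), without overlap. CENPF had 17, 13.9 and 21.6 CPM in pd1245 and 24.8, 30.6 and 28.5 CPM in EK (−0.67, SE 0.22, adjusted p = 0.1), also without overlap. Every pd1245 library lay below every EK library in 7 of 31 mitosis genes and 1 of 27 replication genes, a pattern that 11.6% of all genes tested showed. In the wider marker lists, 0 of 5 blood progenitor, 0 of 3 bone and cartilage progenitor and 0 of 8 neural progenitor markers passed on HP in edgeR, while 2 of 7 germ cell markers fell and 1 rose, and the epidermis marker krt4 rose. The blood progenitor markers still summed to less in pd1245 without overlap, at 52.4 to 56.9 CPM against 62.6 to 66.0 CPM in EK. So did the muscle progenitor list, at 21.4 to 26.3 CPM against 28.6 to 33.7 CPM in EK. The germ cell list did too, at 9.95 to 12.2 CPM against 14.9 to 22.8 CPM. The epidermis list summed to more in pd1245 without overlap, at 11387.2 to 12762 CPM against 9975.4 to 10344.5 CPM. The sums of the other lists overlapped. malat1 took 0.522 to 0.582% of counts in pd1245, against 0.450 to 0.481% in EK. The part of these in the HP values was not tested.

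The balance between the sets was followed through the ratio of summed mitosis CPM to summed replication CPM, a ratio that abundant genes dominate. It was 0.525 and 0.518 in replicates 1 and 2 of pd1245 on LP and 0.367 in replicate 3, against 0.786, 0.627 and 0.732 in EK on LP. It was 0.482, 0.458 and 0.553 in pd1245 on HP, against 0.588, 0.666 and 0.782 in EK on HP. In pd1116 it was 0.639, 0.834 and 0.784 on LP and 0.665, 0.635 and 0.785 on HP. All 6 pd1245 libraries of experiment 1 thus lay below all 12 libraries of pd1116 and EK, on both diets and also without replicate 3. In experiment 2 the groups overlapped, at 0.247 to 0.303 in the adapted line on LP and 0.260 to 0.301 in EK on LP. On HP the adapted line lay at 0.224 to 0.241 and EK at 0.245 to 0.301, a narrow gap that replicate 3 of EK sets.

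How the new mutation differs from the older one was asked by setting pd1245 against pd1116 on each diet. On LP 33 of 58 genes fell and 0 rose, where 9.89% of all genes tested fell and 10.3% rose. They were 4 of 27 replication genes and 29 of 31 mitosis genes, with medians of −0.46 and −0.99. The replication share, 14.8%, is below the 20.2% of all genes called in either direction. The 4 were RRM2 (ENSDARG00000078069), RRM1, POLA1 and TYMS, at −0.86, −0.65, −0.71 and −0.90 (edgeR adjusted p of 0.00405, 0.00987, 0.0151 and 0.0274 in this order). CENPF had 15.5 and 12.2 CPM in replicates 1 and 2 of pd1245 and 5.42 CPM in replicate 3, against 31.2, 33.8 and 33.1 CPM in pd1116 (−1.55, SE 0.23, adjusted p = 0.000233). CDK1 had 7.39 and 4.63 CPM in replicates 1 and 2 of pd1245 and 2.94 CPM in replicate 3, against 12.4, 10.9 and 12.3 CPM in pd1116 (−1.23, SE 0.21, adjusted p = 0.00078). Both groups were apart in each gene. Without replicate 3 of pd1245, 3 replication and 27 mitosis genes fell. With only the 2 groups in the fit 3 genes passed, and 26 when replicate 3 was also left out. In further lists of cell cycle genes outside the 60, 35 of 49 mitosis genes and 9 of 41 replication genes fell, and 0 rose. These lists were chosen with earlier results of these data known, so they give no independent support. Markers of other tissues differed as well. The red cell marker list, nearly all alas2, summed to 18.7 to 27.7 CPM in pd1245 and 44.2 to 64.2 CPM in pd1116. The blood progenitor list summed to 40.4 to 43.1 CPM in pd1245 and 51.0 to 57.4 CPM in pd1116. The bone and cartilage progenitor list summed to 8.92 to 13.4 CPM in pd1245 and 16.5 to 18.8 CPM in pd1116, the enterocyte list to 986 to 1171 CPM in pd1245 and 1261 to 1361 CPM in pd1116, and the epidermis list to 9072 to 9739 CPM in pd1245 and 10536 to 12563 CPM in pd1116. ELAVL3 lay higher, at 282 to 404 CPM in pd1245 and 253 to 256 CPM in pd1116. None of these sums overlapped between the genotypes, and 1 gene of each list passed the test in the direction of its sum. Of the other lists, 3 of 8 neural progenitor markers fell, while ckma, the liver marker fabp10a, crygm2d1 and 2 of 7 germ cell markers rose. malat1 took 0.580 to 1.17% of counts in pd1245 and 0.458 to 0.529% in pd1116. The part of these in the fall was not tested.

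On HP 6 of 58 genes fell in pd1245 against pd1116, all mitotic, where 5.96% of all genes tested fell. They were CENPF, aurka, UBE2C, ccnb3, CCNB2 and CDC20. CENPF had 17, 13.9 and 21.6 CPM in pd1245 and 36.4, 29.4 and 37.7 CPM in pd1116 (log2 fold change −0.97, SE 0.22, edgeR adjusted p = 0.0068). aurka had 2.33, 1.55 and 2.65 CPM in pd1245 and 4.08, 3.38 and 4.36 CPM in pd1116 (−0.84, SE 0.22, adjusted p = 0.0158). All pd1245 libraries lay below all pd1116 libraries in both, although the aurka call was lost without replicate 3 of pd1116 or replicate 2 of pd1245 (adjusted p of 0.0715 and 0.0834). The median was −0.03 for replication and −0.43 for mitosis genes, and the groups did not overlap in 22 of 31 mitosis genes and 1 of 27 replication genes, lower in pd1245, against 17.2% of all genes tested. Beside them 6 of 49 other mitosis genes and 1 of 41 other replication genes fell. The blood progenitor markers summed to 52.4 to 56.9 CPM in pd1245 and 70.6 to 74.7 CPM in pd1116. The bone and cartilage progenitor markers summed to 16.8 to 20.3 CPM in pd1245 and 24.6 to 29.5 CPM in pd1116. The red cell list, nearly all alas2, summed to 36.4 to 53.6 CPM in pd1245 and 58.3 to 67.9 CPM in pd1116. The germ cell list summed to 9.95 to 12.2 CPM in pd1245 and 12.7 to 20.4 CPM in pd1116. Higher in pd1245 was the lens marker, at 241 to 341 CPM against 204 to 237 CPM in pd1116. None of these overlapped, while the sums of the other lists did. malat1 took 0.522 to 0.582% of counts in pd1245 and 0.433 to 0.451% in pd1116. The part of these in the fall on HP was not tested. The count depended on which libraries were fitted. It was 16 with only these 2 groups and 18 when replicate 3 of pd1245 on LP, which is in neither group, was left out. CENPF passed in every fit that left out 1 library of these groups. The count was 2 without replicate 1 of pd1116, 3 without its replicate 2, 1 without its replicate 3 and 1 without replicate 2 of pd1245.

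Diet was compared within each genotype. In pd1245, LP against HP, 16 of 58 genes fell, 9 of 27 for replication and 7 of 31 for mitosis, where 9.78% of all genes tested fell and 9.33% rose. The medians were −0.61 and −0.52, so the 2 medians lay close to each other here. The diets overlapped in most genes of both sets. Every LP library lay below every HP library in 9 of 27 replication genes and 3 of 31 mitosis genes. The share of all genes with that pattern is not given here. RRM2 (ENSDARG00000078069) had 8.70 and 6.14 CPM in replicates 1 and 2 on LP and 5.82 CPM in replicate 3, against 15.7, 10.2 and 15.0 CPM on HP (log2 fold change −0.99, SE 0.18, edgeR adjusted p = 0.00236). RRM1 had 34.5 and 30.1 CPM in replicates 1 and 2 on LP and 20.1 CPM in replicate 3, against 50.4, 38.8 and 50.5 CPM on HP (−0.72, SE 0.16, adjusted p = 0.00678). The diets did not overlap in either gene. PCNA had 106 and 81.7 CPM in replicates 1 and 2 on LP and 69.2 CPM in replicate 3, against 149, 114 and 142 CPM on HP (−0.65, adjusted p = 0.00827), also apart. The other called genes were SPC25, nuf2, TYMS, POLA1, RPA2, CCNA2, CCNE2, mki67, CDK2, GINS2, TOP2A, plk1 and KIF23. This comparison rested on few libraries. It gave 5 genes without replicate 3 of pd1245 on LP and 0 with only these 2 groups in the fit, and both RRM2 and RRM1 then had adjusted p of 0.104 and 0.136. With 1 HP library left out it was 5 (replicate 1) or 3 (replicate 3), and with 1 LP library left out it was 10 (replicate 2) or 42 (replicate 1). aurka, at 3.00 and 2.39 CPM in replicates 1 and 2 on LP and 3.44 CPM in replicate 3, against 2.33, 1.55 and 2.65 CPM on HP, had the highest of the 58 fold changes (0.41, SE 0.22, adjusted p = 0.208). Some of the tissue marker lists moved with diet in pd1245 as well. On LP the blood progenitor list summed to 40.4 to 43.1 CPM, against 52.4 to 56.9 CPM on HP, and MYB and klf1 fell. The red cell list, nearly all alas2, summed to 18.7 to 27.7 CPM on LP and 36.4 to 53.6 CPM on HP. The bone and cartilage progenitor list summed to 8.92 to 13.4 CPM on LP and 16.8 to 20.3 CPM on HP. The enterocyte list summed to 986 to 1171 CPM on LP and 1337 to 1741 CPM on HP. The epidermis list summed to 9072 to 9739 CPM on LP and 11387 to 12762 CPM on HP. The muscle list was higher, at 4806 to 8904 CPM on LP and 2821 to 3906 CPM on HP, as was ELAVL3, at 282 to 404 CPM on LP and 225 to 275 CPM on HP. Ribosomal protein genes took 8.47 to 13.9% of counts on LP and 7.24 to 8.16% on HP. The diets overlapped in none of these values. They did overlap in the liver, lens, germ cell, neural progenitor and muscle progenitor sums and in the malat1 share. The part of any of these in the diet change of the replication and mitosis genes was not tested.

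Whether diet acted differently in pd1245 than in EK was tested by the interaction, the difference between the log2 diet changes of the genotypes. It was negative in 54 of 58 genes with a median of −0.65, and 4 passed, all lower: SPC25, RRM1, RRM2 (ENSDARG00000078069) and POLA1, where 3.4% of all genes tested passed in that direction. SPC25 gave −0.95 (SE 0.20, edgeR adjusted p = 0.0128), RRM1 −0.90 (SE 0.22, adjusted p = 0.0282), RRM2 −0.92 (SE 0.25, adjusted p = 0.0378) and POLA1 −0.92 (SE 0.26, adjusted p = 0.0481). For SPC25 the diets differed in opposite senses, with 10.1 and 9.50 CPM in replicates 1 and 2 of pd1245 on LP and 5.99 CPM in replicate 3, against 12.5, 11.6 and 13.5 CPM on HP, and 14.5, 14.8 and 14.5 CPM in EK on LP against 10.1, 11.8 and 10.9 CPM on HP. Diets did not overlap within either genotype in SPC25. Without replicate 3 of pd1245 on LP 2 of the 58 genes passed, while RRM2 and POLA1 did not (adjusted p of 0.0523 and 0.0507). Among the EK libraries, omitting replicate 1 on HP or replicate 2 or 3 on LP brought the count to 1. Among the pd1245 libraries, omitting replicate 1 or 3 on HP brought it to 1 and replicate 2 on HP to 12, and omitting replicate 2 on LP brought it to 2 and replicate 1 on LP to 31. Set against pd1116 in place of EK, the interaction had a median of −0.52. In edgeR 0 genes passed, where 0.616% of all genes tested passed, with 12 at an unadjusted p under 0.05 and 1 in DESeq2. Without replicate 1 of pd1245 on LP 5 passed. Counts at an unadjusted p, here and below, stand without the share of all genes at that threshold. They are therefore not read as particular to these genes.

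In pd1116 and in EK the replication and mitosis genes showed no call in edgeR in any of 4 comparisons. pd1116 against EK gave 0 of 58 on LP, with 2 at an unadjusted p under 0.05 and 1 in DESeq2, and 0 on HP, with 1 at an unadjusted p under 0.05 and 0 in DESeq2. Over all genes tested 6.68% passed on LP and 2.9% on HP in these comparisons. On LP 30 of 58 log2 fold changes were negative, with a median of −0.02. On HP 12 of 58 were negative, with medians of 0.10 for the replication genes and 0.14 for the mitosis genes. mki67 had 84.2, 76.7 and 78.3 CPM in pd1116 and 86.0, 84.8 and 81.9 CPM in EK on LP, and PCNA had 139, 97.3 and 109 CPM in pd1116 and 125, 156 and 136 CPM in EK. LP against HP gave 0 of 58 in pd1116, with 4 at an unadjusted p under 0.05 and 1 in DESeq2, where 6.79% of all genes tested passed. It gave 0 of 58 in EK, with 1 at an unadjusted p under 0.05 and 0 in DESeq2, where 0.154% passed. In EK the mitosis genes had a median log2 fold change of 0.16, with 4 of 31 negative, and the replication genes one of 0.07. The diet interaction of pd1116 with EK was negative in 44 of 58 genes, with a median of −0.17. It gave 0 of 58 in edgeR, with 2 at an unadjusted p under 0.05 and 0 in DESeq2, where 0.0044% of all genes tested passed. Single libraries moved these counts: without replicate 3 of pd1245 on LP in the fit, 1 gene passed in pd1116 against EK on LP, 2 between the diets of pd1116 and 1 between the diets of EK. Without replicate 1 of EK or replicate 1 of pd1116 on LP, 1 gene passed in pd1116 against EK on LP. Comparisons of 1 genotype share libraries, so their values are set side by side and no agreement between them is drawn.

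**Figure D4:**
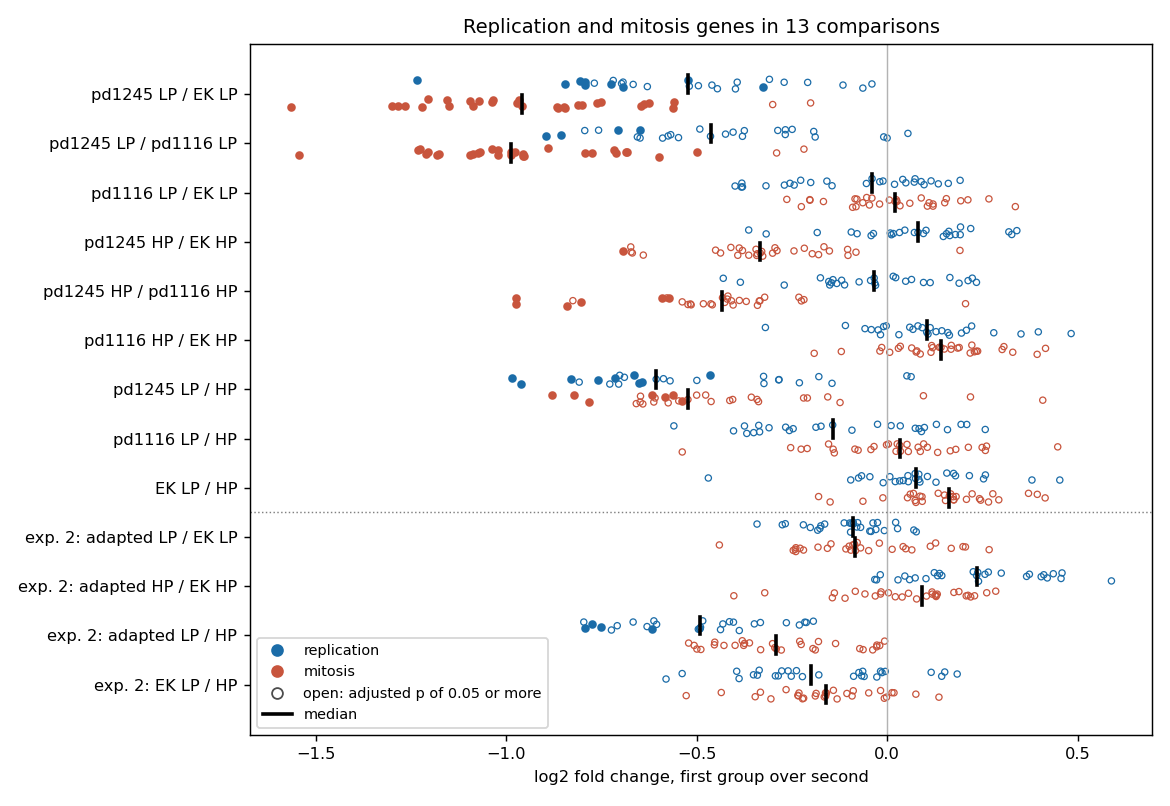
Log2 fold change (x axis) of each replication gene (blue) and mitosis gene (red) in 13 comparisons, first named group over second, with medians as black bars; filled points passed an adjusted p of 0.05. The mitosis median lies left of the replication median in each comparison of pd1245 with EK or pd1116 in experiment 1. The order is the opposite in every comparison of LP with HP, in both experiments.

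In experiment 2 no replication or mitosis gene was called between the adapted pd1245 line and EK. On LP 0 of 58 genes passed in edgeR, with 2 at an unadjusted p under 0.05 and 0 in DESeq2, and the median log2 fold change was −0.09, where 2.36% of all genes tested passed. On HP 0 of 58 passed in edgeR, with 6 at an unadjusted p under 0.05 and 0 in DESeq2. Of all genes tested 1.44% passed at the adjusted threshold, and their share at the unadjusted one is not given. The HP median was 0.24 for replication genes, with 3 of 28 negative, and 0.09 for mitosis genes. Without replicate 3 of EK on HP 1 gene passed. On HP every library of the adapted line lay above every EK library in 4 of 28 replication genes and 0 of 30 mitosis genes, against 8.18% of all genes tested. mki67 had 31.6, 25.8, 27.1 and 26.5 CPM in the adapted line and 31.6, 24.5, 32.0 and 31.0 CPM in EK on LP. CENPF had 5.92, 5.52, 4.91 and 5.77 CPM in the adapted line and 8.30, 5.29, 5.84 and 6.79 CPM in EK on LP. The groups overlapped in both genes, which were among those with the widest gaps in experiment 1. Whether the adapted line differs from the new mutation cannot be tested across the experiments, since kit and line change together. bub1 lay at 0.0848 to 1.11 CPM in experiment 2 and was not tested there.

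Between the diets of the adapted line the genes that passed were of the helicase. On LP against HP all 58 log2 fold changes were negative, with medians of −0.49 for replication and −0.29 for mitosis genes, and 4 fell, where 0.78% of all genes tested fell. All 4 encode subunits of the MCM helicase, although ORC6, which did not pass, had the most negative fold change of the 58. MCM6 (ENSDARG00000057683) had 43.9, 38.7, 39.7 and 34.3 CPM on LP and 77.2, 58.4 and 68.2 CPM on HP (−0.79, SE 0.13, edgeR adjusted p = 0.00451). MCM3 had 63.3, 45.2, 47.6 and 40.2 CPM on LP and 94.6, 67.9 and 85.8 CPM on HP (−0.75, SE 0.16, adjusted p = 0.0216). In both genes every LP library lay below every HP library. MCM5 had 39.0, 27.3, 29.4 and 21.5 CPM on LP and 58.7, 39.8 and 52.1 CPM on HP (−0.77, SE 0.18, adjusted p = 0.0308). MCM4 had 40.9, 43.8, 47.9 and 37.5 CPM on LP and 71.6, 53.0 and 71.0 CPM on HP (−0.62, SE 0.15, adjusted p = 0.0372). These groups did not overlap either. MCM2 was lower by a similar amount and did not pass, at 51.8, 38.2, 43.0 and 36.2 CPM on LP and 76.1, 51.4 and 74.3 CPM on HP, where 1 LP library exceeded 1 HP library (−0.67, SE 0.17, adjusted p = 0.0525). MCM7, the last subunit of the ring, had 15.1, 17.6, 20.8 and 14.6 CPM on LP and 20.8, 16.7 and 22.4 CPM on HP, with overlap (−0.23, SE 0.22, adjusted p = 0.593).

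**Figure D5:**
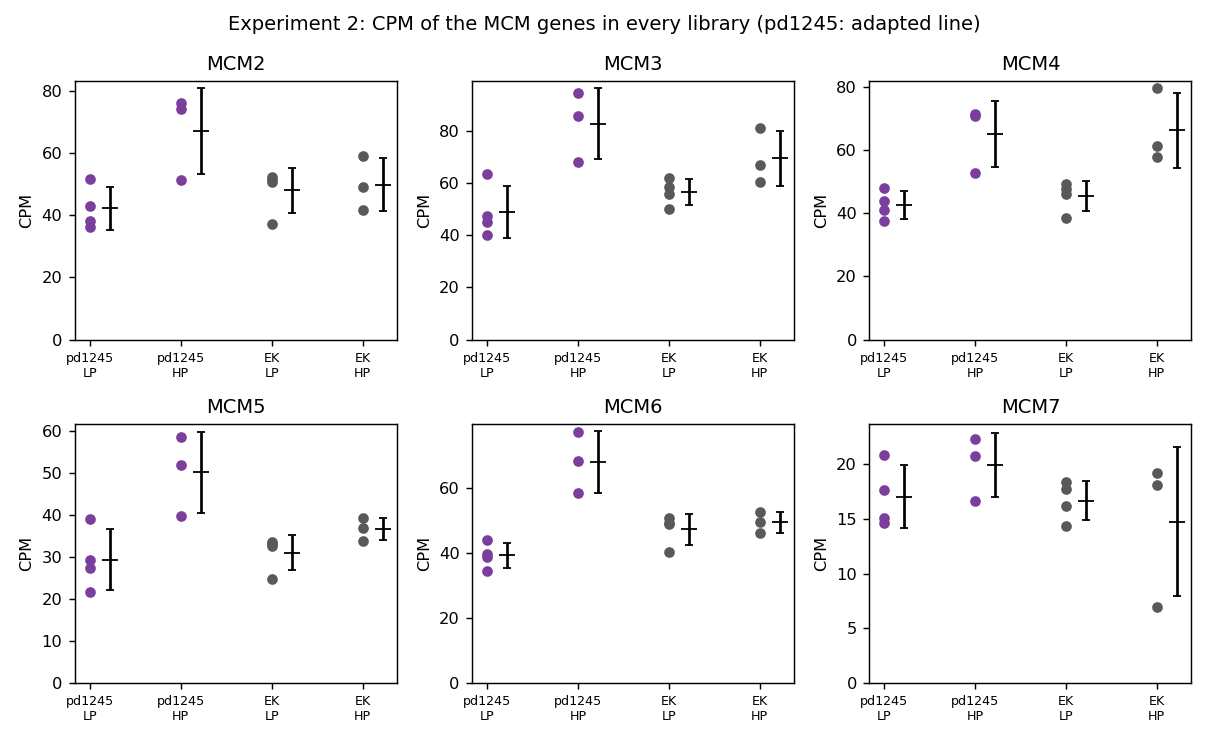
CPM of the 6 MCM helicase genes in every library of experiment 2, adapted pd1245 line (purple) left of EK (grey), each on LP and HP, with the group mean and SD beside the points; MCM6 is ENSDARG00000057683. In MCM3, MCM4, MCM5 and MCM6 the LP libraries of the adapted line lie below its HP libraries without overlap; MCM7 overlaps.

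Other signs differed between these diets too. malat1 took 1.58 ± 0.117% of counts on LP (SD, n = 4) and 1.08 ± 0.168% on HP (SD, n = 3). Ribosomal protein genes took 15.4 ± 0.659% on LP and 14.0 ± 0.444% on HP. The epidermis list summed to 3508 to 4490 CPM on LP and 4854 to 4931 CPM on HP, and the blood progenitor list to 33.0 to 38.7 CPM on LP and 30.8 to 31.3 CPM on HP. The diets overlapped in none of these values. They did overlap in the sum of every other marker list, such as muscle, at 4374 to 8078 CPM on LP and 3450 to 6309 CPM on HP. The part of any of these in the diet change was not tested.

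Other replication genes of the adapted line lay in the same direction without passing. PCNA had 207, 223, 224 and 185 CPM on LP and 378, 299 and 352 CPM on HP, without overlap (−0.71, SE 0.20, adjusted p = 0.0687). ORC6, of the origin recognition complex, had 6.46, 5.52, 6.11 and 5.26 CPM on LP and 12.0, 7.45 and 11.0 CPM on HP, without overlap (−0.80, SE 0.22, adjusted p = 0.0688). GINS2 had 10.9, 10.4, 9.71 and 8.99 CPM on LP and 19.4, 14.2 and 16.1 CPM on HP, again apart (−0.72, SE 0.20, adjusted p = 0.0666). Every LP library lay below every HP library in 19 of 28 replication genes and 7 of 30 mitosis genes, against 11.3% of all genes tested. The count of calls moved with the setting: it was 12 with only these 2 groups in the fit, 13 in DESeq2, and 1 without replicate 1 or 3 on HP or replicate 2, 3 or 4 on LP. Omitting replicate 2 on HP gave 11, and omitting replicate 1 on LP gave 9. MCM6 passed in each fit that left out 1 library, and MCM3 lost its call without any of the 5 libraries that left 1 gene, with adjusted p of 0.0634 to 0.149.

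EK showed smaller diet differences in the same experiment, but these were not shown to differ from those of the adapted line. LP against HP in EK gave 0 of 58 in edgeR, with 2 at an unadjusted p under 0.05 and 1 in DESeq2, and medians of −0.20 for replication and −0.16 for mitosis genes, where 0.078% of all genes tested passed. MCM6 (ENSDARG00000057683) had 50.6, 40.1, 48.8 and 49.1 CPM on LP and 49.5, 45.9 and 52.4 CPM on HP in EK, with overlap. The diet interaction of the adapted line with EK gave 0 of 58, with 5 at an unadjusted p under 0.05 and 0 in DESeq2, where 0% of all genes tested passed. It was negative in all 28 replication genes, with a median of −0.36, and MCM6 gave −0.73 (SE 0.19, adjusted p = 0.857). Replicate 2 of EK on HP, the library with the fewest counts, was the lowest of its group in PCNA, at 127 CPM against 258 and 296 CPM, and widened the EK spread there. Its malat1 share of 1.91% and TMM factor of 1.17 were the highest of experiment 2. Its set medians were −0.16 for replication and −0.17 for mitosis genes, against 0.03 and 0.31, and 0.13 and 0.21, in replicates 1 and 3. Omitting it left 0 genes called between the diets of EK. Its part in the size of the EK diet differences was not tested.

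Cell cycle genes outside the 60 were taken from further lists, which were chosen with earlier results of these data known. In pd1245 against EK on LP, 39 of 49 other mitosis genes fell and 1 rose, with a median of −0.86, and 14 of 41 other replication genes fell and 1 rose, with a median of −0.38, where 15.8% of all genes tested fell and 16% rose. Examples among the mitosis genes were cdca5, a cohesin regulator (−1.22, edgeR adjusted p = 0.000284), kifc1, a spindle motor (−1.23, adjusted p = 0.000391), and NCAPG, a condensin subunit (−1.11, adjusted p = 0.00043). Examples among the replication genes were PRIM1, the primase, at 4.24 ± 0.883 CPM in pd1245 and 7.33 ± 0.782 CPM in EK (SD, n = 3 each; −0.78, adjusted p = 0.00142), and the nuclease gene dna2 (−0.63, adjusted p = 0.00193). Of 12 growth-phase and E2F genes 4 fell and 0 rose: tfdp2, e2f3, E2F8 and e2f2. This share of calls is near the 31.8% of all genes that changed in either direction, as is the 36.6% of the other replication genes. CCND1, CDK4 and CDK6, which carry the growth signal into the cycle, did not pass, at 0.04, 0.08 and −0.28. On HP 1 of 49 other mitosis genes fell, the inhibitory kinase gene WEE1 (−0.54, adjusted p = 0.0178), and 0 of 41 other replication genes passed in edgeR, where 2.54% of all genes tested fell. In pd1116 against EK on HP, WEE1 (−0.48, adjusted p = 0.0421) and CDK4 (−0.51, adjusted p = 0.0051) fell. These were 1 of 49 other mitosis genes and 1 of 12 growth-phase and E2F genes, where 2.9% of all genes tested passed. In experiment 2 gtse1, which acts on microtubules in mitosis, was higher in the adapted line than in EK on both diets, at 5.53 ± 1.12 CPM against 3.12 ± 0.484 CPM on LP (SD, n = 4 each; 0.83, adjusted p = 0.03) and 5.95 ± 0.864 CPM against 2.82 ± 0.848 CPM on HP (SD, n = 3 each; 1.00, adjusted p = 0.0421). It was the 1 gene of 49 other mitosis genes to pass on each diet, where 2.36% of all genes tested passed on LP and 1.44% on HP.

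Genes of cell cycle arrest did not move as 1 group in pd1245 on LP. Of 19 tested against EK, 3 rose and 4 fell, with a median of 0.05; this share of calls is near the 31.8% of all genes that changed, so the list does not stand apart by its count. cdkn1a, the p21 inhibitor of CDKs, fell, at 4.67 ± 0.637 CPM in pd1245 and 9.44 ± 0.809 CPM in EK (SD, n = 3 each; −1.01, SE 0.15, edgeR adjusted p = 0.000119). CCNG2, an atypical cyclin of resting cells, also fell, at 28.8 ± 1.72 CPM in pd1245 and 44.6 ± 3.09 CPM in EK (−0.63, adjusted p = 0.000949). LIN54, a DNA-binding subunit of the complexes that repress or activate cell cycle genes, rose, at 36.7 ± 5.36 CPM in pd1245 and 23.1 ± 1.89 CPM in EK (0.66, adjusted p = 0.000725). The other genes that rose were SESN1, a stress-induced regulator of growth signalling (0.79), and LIN52 (0.50), and sesn3 was also among those that fell (−0.31). In the adapted line on LP against HP, SESN1 rose, at 237 ± 70.3 CPM on LP (SD, n = 4) and 86.5 ± 15.0 CPM on HP (SD, n = 3; 1.45, SE 0.24, adjusted p = 0.00451), and it was the 1 arrest gene of 19 to pass there, where 1.88% of all genes tested changed in either direction. knl1, a kinetochore scaffold, was the 1 gene of 49 other mitosis genes to fall in that comparison (−0.66, adjusted p = 0.0493), and 0 of 40 other replication genes passed.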

How the data were processed

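Experiment 1 comprised 18 strand-specific poly(A) libraries with raw counts per gene deposited by the authors. Per the submitters' processing notes, FastQC 0.11.7, Trim Galore 0.6.5, STAR 2.7.3a, HTSeq 0.11.1 and GRCz11 were used. Experiment 2 comprised 14 stranded libraries with molecular identifiers, whose deposited matrix holds expected counts that are partly fractional: 78.3 to 84.8% of the values above 0 were whole within 0.005. The submitters' processing notes name fastp 0.24.0, STAR 2.7.11 and Subread 2.1.1 for it. Its columns were matched to samples by the number that opens each title, and its values were rounded. The annotation release and the handling of molecular identifiers are not given in the sources used here. Rows that name no gene, 14.6 to 16.8% of counts in experiment 1, and 92 spike-in features in experiment 2 were left out. Low depth limits the precision of low genes, and identifiers aside, counts are not independent molecules.

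From the deposited counts, CPM were computed with TMM scaling, and comparisons were tested with the 2-sided quasi-likelihood F test of edgeR 4.0.16 (R 4.3.3; filterByExpr; all groups of an experiment in 1 fit), with Benjamini-Hochberg adjustment over all 22742 genes tested in experiment 1 and 16671 in experiment 2 and a threshold of 0.05. Every adjusted p in the text comes from it unless DESeq2 is named. The SE is the log2 fold change divided by the square root of F. The procedure was also run on simulated counts, with the same spread for every gene of an experiment and no library made to deviate. That run therefore does not bear on a library such as replicate 3 of pd1245 on LP. Alternatives were relative log expression scaling, no filter, a replicate block, a fit of the compared groups alone, omission of single libraries in turn, and DESeq2 1.42.0; the fit of only the groups compared without replicate 3 of pd1245 on LP was added after seeing the data.

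The members and the further gene lists were chosen with earlier results of these data known. Values in every library were given for up to 2 members per role with the smallest p in pd1245 against EK on LP, and up to 2 per direction in other comparisons with calls. From the further lists up to 3 called genes per list and comparison were to be named. Other genes with values, such as MCM7, CCNB2, TYMS, aurka in the LP comparisons, and PCNA, ORC6 and GINS2 in experiment 2, were chosen after their values were seen. A gene of the arrest list is counted but not reported here by name.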

Additional observations from a re-analysis of the deposited data

Results flagged for a closer look

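In experiment 2, 70 groups of 4 libraries were checked for a library far from the others. Each held the values of 1 LP group for 1 named gene, for the summed CPM of 1 set, or for the ratio of the sums. The gap to the nearest library over the group's range was set against Dixon's 95% critical value. Chance passes it in about 1 group in 20. In EK on LP replicate 2 was the lowest for MCM2 (ratio 0.883, 37.4 CPM), MCM5 (0.875, 24.8 CPM) and mki67 (0.869, 24.5 CPM). In the adapted line on LP replicate 4 was the lowest for CDK2 (0.902, 8.82 CPM), and replicate 1 was the highest for GINS3 (0.837, 6.08 CPM), SPC25 (0.868, 9.87 CPM) and plk1 (0.874, 12.7 CPM). The diet response of pd1245 in experiment 1 differed from that of EK, by the interaction test, in SPC25 (−0.95), RRM1 (−0.90), RRM2 (ENSDARG00000078069; −0.92) and POLA1 (−0.92), all on the log2 scale.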

How the results depend on the processing

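Signs were checked only for genes named by their p or their call, each in the comparison where it was so named. None of these changed the sign of its fold change under any alternative run that tested it. Genes chosen after their values were seen, such as MCM7, were not checked. Counts and medians were not checked for reversal. Set medians were checked under the alternatives, with replicate 3 of pd1245 on LP as the only single library omitted. Of these medians 202 stayed within the SD between libraries of the groups compared and 2 moved beyond it. That SD includes replicate 3. In pd1245 on LP it was 0.43 for replication and 0.55 for mitosis genes, so staying within it is a weak check there. With only the groups compared in the fit, the called members numbered 18 in pd1245 against EK on LP, 2 on HP, 1 in pd1116 against EK on LP, 3 in pd1245 against pd1116 on LP, 16 on HP, 0 between the diets of pd1245, 4 between those of pd1116, 1 in the diet interaction of pd1245 with EK and 12 between the diets of the adapted line. Leaving replicate 3 of pd1245 on LP out of that fit as well gave 2 between the diets of pd1245 and 2 in that interaction. DESeq2 gave 1 in pd1116 against EK on LP, 1 between the diets of pd1116, 9 in the interaction of pd1245 with EK, 1 in that with pd1116, 13 between the diets of the adapted line and 1 between those of EK in experiment 2. Without a filter on low counts 1 passed between the diets of pd1116, 7 in the interaction of pd1245 with EK and 9 between the diets of the adapted line. Leaving out each library in turn gave 34 to 48 in pd1245 against EK on LP and 0 to 5 on HP, 28 to 43 in pd1245 against pd1116 on LP and 1 to 18 on HP, 3 to 42 between the diets of pd1245, 1 to 31 in its interaction with EK and 0 to 5 in that with pd1116. It gave 0 to 1 in pd1116 against EK on LP and 0 to 0 on HP, 0 to 2 between the diets of pd1116, 0 to 1 between those of EK, 1 to 11 between the diets of the adapted line, 0 to 1 in that line against EK on HP and 0 to 0 elsewhere. Whether same-numbered libraries deviated together was checked by asking for a correlation over 0.1 in every pair. This held in 0 of the 15 group pairs of the first experiment and in 0 of the 6 of the second. The main fit did not pair libraries by replicate number, and this rule cannot exclude a shared tank or clutch. A replicate block gave 42 in pd1245 against EK on LP, 37 in pd1245 against pd1116 on LP, 3 on HP, 19 between the diets of pd1245 and 5 between those of the adapted line. The cause of these shifts was not tested. Counts of alternative fits, here and above, stand without the share of all genes passing in the same fit. A shift in them may therefore not be particular to these genes. Of the values of the genes checked for sign under the alternatives, 445 kept their side of the threshold, 86 no longer passed and 9 newly passed. Depth limits the genes near 1 CPM, such as GINS3 and CCNB2, and bub1 in experiment 2.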

Other observations

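Between the diets of pd1245 in experiment 1, LP against HP, 10 of 41 other replication genes and 14 of 49 other mitosis genes fell and 0 rose, where 9.78% of all genes tested fell and 9.33% rose. SMC2 and NCAPD3, condensin subunits, stood at −0.98 and −0.85 (edgeR adjusted p of 0.00485 and 0.00992), and ORC3, of the origin recognition complex, at −0.68 (adjusted p = 0.011). Among 19 arrest genes 4 rose and 1 fell; LIN54 stood at 0.65 and the antiproliferative genes BTG2 and BTG1 at 0.87 and 0.36 (adjusted p of 0.00282, 0.0137 and 0.0336). In the diet interaction of pd1245 with EK, cdkn1a was lower (−0.93, adjusted p = 0.0163) and LIN54 higher (0.60, adjusted p = 0.0486). Of 19 arrest genes they were the only ones to pass, where 5.70% of all genes tested passed in either direction. In pd1116 against EK on LP, where 0 of the 58 replication and mitosis genes passed in edgeR (2 at an unadjusted p under 0.05, 1 in DESeq2), SESN1 rose (0.70, adjusted p = 0.0338), as did TOPBP1, a replication checkpoint gene (0.49, adjusted p = 0.0431). These were 1 of 19 arrest genes and 1 of 41 other replication genes, where 6.68% of all genes tested passed. Neither list stood apart by its count. Between the diets of pd1116, DUT, the dUTP-hydrolysing enzyme, fell by 0.52 (adjusted p = 0.00544) and ORC3 by 0.64 (adjusted p = 0.0238) on LP. They were 2 of 41 other replication genes, where 6.79% of all genes tested passed, so that list did not stand apart by its count.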
